A study of Arabidopsis thaliana with 27 samples.

Results

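Heat shock transcription factors (HSFs) are the DNA-binding proteins that switch on chaperone genes when proteins unfold, and 10 of the Arabidopsis HSF genes were followed through sorted leaf cells and root cells. The 10 genes were listed by identifier, and the list was drawn up with earlier results of these data known. They are HSFA1A (AT4G17750), HSFA1B (AT5G16820), HSFA2 (AT2G26150), HSFA3 (AT5G03720), HSFA4A (AT4G18880), HSFA7A (AT3G51910), HSFA7B (AT3G63350), HSFB1 (AT4G36990), HSFB2A (AT5G62020) and HSFB2B (AT4G11660). They make up 10 of the 33602 genes counted and 10 of 21 annotated HSFs. Of the 10, 9 had at least 1 count in any library, and HSFB1 was listed at 0 in all 27 libraries.

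An HSF acts as a trimer that binds heat shock elements, arrays of the unit nGAAn in alternating orientation. In Arabidopsis the HSFA1 proteins are the master activators and are held inactive by HSP70 and HSP90 chaperones until damaged proteins draw the chaperones away. They then activate a second tier of class A factors, among them HSFA2, HSFA3, HSFA7A and HSFA7B, while class B factors lack the activation domain and mostly act as repressors. In leaves the same network also responds to strong light and to reactive oxygen species.

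The 27 libraries were made from mRNA of protoplasts, cells whose walls had been digested, and fall into 9 groups of 3. Plants were 17 d old and all leaf material carried a fluorescent reporter. In 6 groups the plants were of the IQD22pro:GUS-mCit line, in which a fragment upstream of IQD22 drives a fluorescent protein in the palisade, the upper photosynthetic layer of the leaf. Fluorescence-positive protoplasts gave the palisade libraries and chlorophyll-containing protoplasts without the signal gave the reference libraries, which thus hold spongy mesophyll and other green cells. These 6 groups comprise palisade and reference cells digested with the transcription inhibitors actinomycin D and cordycepin after 2 h in high light (300 uE m-2 s-1), the same 2 populations digested with inhibitors from plants kept in low light (50 uE m-2 s-1), and both populations digested without inhibitors in low light. In 2 further groups the plants were of JR11-2, an enhancer trap line with a GAL4-VP16 driver whose GFP is strongest in lower spongy mesophyll. There the library labelled palisade is the GFP-negative fraction and the library labelled reference the GFP-positive one, both without inhibitors. The last group is total root protoplasts of Col-0, with no selection by a reporter and no inhibitors. Each leaf pool gave 1 palisade and 1 reference library, so that there are 12 leaf pools.

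Each library held 15070000 to 38788930 counts on nuclear genes, with the inhibitor libraries at the low end and the root libraries at the high end. At these depths 3 counts correspond to 0.0773 to 0.199 CPM (counts scaled to library size, with TMM factors over all 27 libraries). Libraries of 1 group correlated with each other at r = 0.982 to 0.992 over 23371 genes. Summed CPM of 3 mesophyll markers was 14975 to 62145 in leaf libraries against 19.2 to 20.5 in root. Guard cell markers summed to at most 1.87 CPM in any library. The palisade marker IQD22 was at 86.9 to 134 CPM in palisade and 44.7 to 62.9 CPM in reference cells without inhibitors, and 2 abaxial markers summed to 10.9 to 18.9 CPM in palisade and 357 to 459 CPM in reference cells. In bulk samples of this kind, fewer cells of a type and less RNA per cell cannot be told apart.

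On assembly TAIR10.1 the members lie on 4 chromosomes. HSFA2 is at chr2:11135624-11137792 on the plus strand, HSFA7A at chr3:19265141-19266806 (plus), HSFA7B at chr3:23399236-23400812 (plus), HSFA1A at chr4:9869818-9871646 (minus) and HSFA4A at chr4:10347479-10349902 (minus). HSFB1 is at chr4:17440177-17442151 (plus), HSFB2B at chr4:7042354-7044708 (plus), HSFA1B at chr5:5530195-5532889 (plus), HSFA3 at chr5:971142-974326 (minus) and HSFB2A at chr5:24915807-24917643 (plus). Of HSFA1A, 14 of 1584 windows of 50 bases recur elsewhere in the genome, and of the other 9 genes none do, so that reads of the length used here can be told apart between members.

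Promoter sequence is shown before the levels, because the heat shock element is the site through which these factors act on each other. In the 250 bases before and 50 bases after each annotated start (RefSeq, assembly TAIR10.1, both strands searched), a 3-unit element, spelled GAANNTTCNNGAA or TTCNNGAANNTTC, occurred in 132 of 27444 protein-coding promoters, or 0.481%. HSFA2 and HSFA7B held 1 each and HSFA7A held 2, while none of the other 7 members and none of the 11 other HSFs held one. Each 30-base window is given 5′ to 3′ on the strand of the gene with the element in capitals, from chr2:11135528-11135557 for HSFA2, chr3:19264941-19264970 and chr3:19264991-19265020 for HSFA7A and chr3:23399071-23399100 for HSFA7B, all on the plus strand.
HSFA2, bases -88 to -76 from the start: ttagtaacGAAGTTTCTGGAAcattgtctt
HSFA7A, bases -192 to -180: ttacgaagTTCCAGAAGTTTCgactattcg
HSFA7A, bases -142 to -130: aaaaccgtTTCCAGAAGTTTCtaatttcta
HSFA7B, bases -157 to -145: agtataagTTCCGGAACTTTCtaagaagat
The 2 elements of HSFA7A carried the same 13 letters. The shorter 2-unit forms GAANNTTC and TTCNNGAA, which lie inside every 3-unit element, occurred in 11.6% and 9.16% of all promoters. The dehydration-responsive element ACCGAC or GCCGAC, the site of DREB2A, occurred in 8.72% of all promoters, once each in HSFA1A and HSFB2A among the members, and HSFA3 had none in this window. A match describes the letters and not a bound site.

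Without inhibitors, HSFA2, HSFA4A and HSFB2A were the 3 highest of the 9 measured members in leaf cells. HSFA2, the heat-inducible activator that prolongs the heat response, reached 504 CPM in 1 reference library and was the highest member per length in all 4 leaf groups without inhibitors. It averaged 189 ± 42.0 CPM per kb of exon in palisade cells and 242 ± 37.2 CPM per kb in reference cells (SD, n = 3 each), which is 45.5% and 50.3% of the summed level of the 9 measured members, without HSFB1 and the other HSFs. HSFA4A, a class A factor linked to oxidative stress, was next in palisade cells at 109 ± 11.5 CPM per kb, and HSFB2A, a class B factor, followed at 71.3 ± 15.701 CPM per kb. In reference cells HSFB2A, at 90.8 ± 9.88 CPM per kb, and HSFA4A, at 85.9 ± 12.6 CPM per kb, lay within each other's SD. HSFB2B, a repressor of heat-inducible HSF genes in Arabidopsis, had rank 4 among the members in all 4 leaf groups without inhibitors, at 23.8 ± 7.69 CPM per kb in palisade cells. The master activators among the members were low, with HSFA1A at 6.22 ± 0.364 CPM per kb and HSFA1B at 3.81 ± 0.987 CPM per kb in palisade cells. HSFA1D and HSFA1E, of the same class, are not members. The plot of CPM in every library shows these levels together with those of the other groups.

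**Figure D1:**
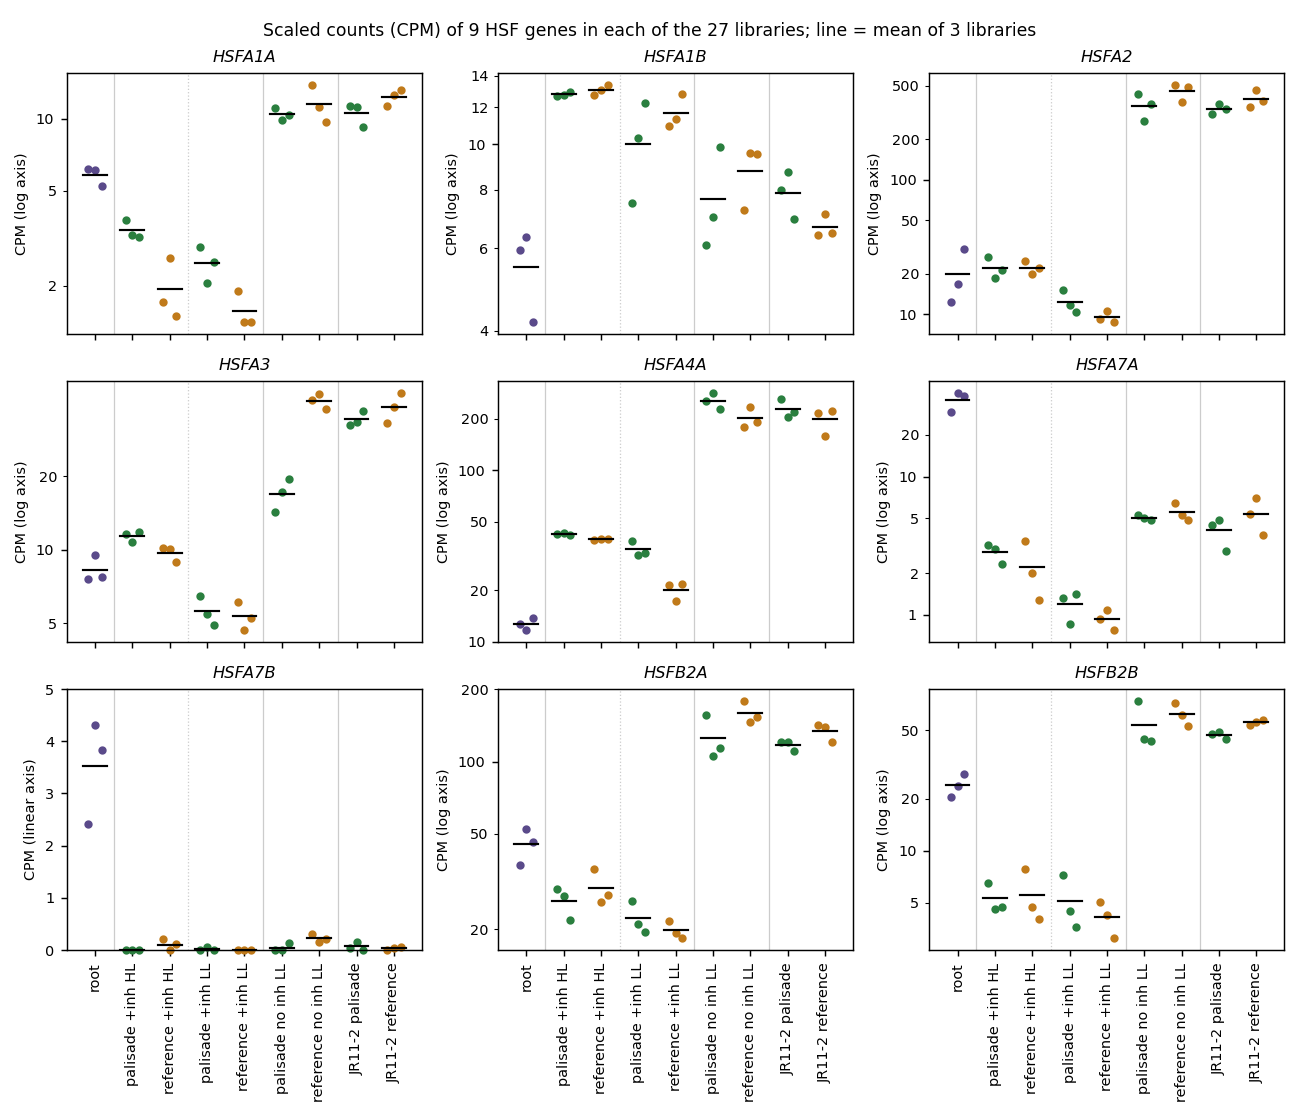
Scaled counts (CPM) of the 9 HSF genes with any count, 1 panel per gene, in each of the 27 libraries (points, 3 per group) with the group mean (line). Groups run from root over inhibitor-treated high light (+inh HL) and low light (+inh LL) cells to cells without inhibitors, with palisade in green, reference in orange and root in purple. The 6 inhibitor-treated HSFA2 libraries at low light sit between 8.68 and 15.2 CPM, below all 12 leaf libraries without inhibitors, and HSFA7A and HSFA7B are highest in root.

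The first comparison asks how far the HSF message of leaf cells depends on whether transcription was blocked during the digestion. With inhibitors in low light, 7 of the 8 members tested in palisade cells and 8 of the 9 tested in reference cells were lower, and none was higher. Across all nuclear genes 19.9% of those tested were called in palisade cells and 22% in reference cells, where a call needs an adjusted p below 0.05 (edgeR quasi-likelihood test with Benjamini-Hochberg adjustment, used throughout) and a fold-difference above 2. HSFA2 fell most of the members at measurable levels, 30.1-fold in palisade and 47.1-fold in reference cells, and HSFA1B was the member that did not fall. The median log2 fold change was -2.34 over the tested members in palisade and -2.98 in reference cells, against -0.033 and 0.040 over all genes.

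HSFA2 was at 15.2, 11.7 and 10.3 CPM in the 3 palisade libraries with inhibitors, against 429, 272 and 362 CPM in the 3 without. In reference cells it was at 9.23, 10.6 and 8.68 CPM with inhibitors and 504, 374 and 484 CPM without. The groups did not overlap in either population, and the log2 fold changes were -4.91 ± 0.24 in palisade (SE, adjusted p = 2.22e-07) and -5.56 ± 0.18 in reference cells (adjusted p = 3.68e-09). The means of the 4 leaf groups without inhibitors ran from 338 ± 29.7 CPM in JR11-2 palisade to 454 ± 69.8 CPM in reference cells, and neighbours in that order lay within 1 SD of each other. All 12 libraries with inhibitors lay at or under 26.7 CPM.

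Both class B factors with counts followed the same direction. HSFB2A was at 26.2, 21.1 and 19.5 CPM in palisade cells with inhibitors, against 157, 105 and 114 CPM without. For HSFB2B the palisade values were 7.21, 4.46 and 3.58 CPM with inhibitors and 74.1, 44.3 and 43.5 CPM without. In each gene the libraries with inhibitors were all below those without. HSFB2B had the larger log2 fold change of the pair, -3.49 ± 0.29 in palisade and -3.89 ± 0.20 in reference cells (adjusted p = 4.15e-06 and 4.5e-08), and HSFB2A had -2.56 ± 0.19 and -2.98 ± 0.14. In palisade cells the library of replicate 1 without inhibitors was the highest of its 3 for HSFA2, HSFB2A and HSFB2B, as was replicate 1 in reference cells, which came from the same pool.

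HSFA4A fell less than HSFA2 did, and more than HSFA1A, HSFA3, HSFA7A and HSFB2A did in both populations. It was at 38.9, 32.3 and 33.1 CPM with inhibitors and 254, 283 and 229 CPM without in palisade cells, and at 21.4, 17.398 and 21.6 CPM with and 179, 235 and 191 CPM without in reference cells. That is 7.64-fold lower in palisade and 9.78-fold lower in reference cells, and HSFA4A was the highest member per length in palisade cells with inhibitors, at 14.8 ± 1.54 CPM per kb. HSFA7A, a heat-inducible class A factor, had log2 fold changes of -2.12 ± 0.26 in palisade and -2.54 ± 0.24 in reference cells on levels of 0.866 to 1.41 CPM with and 4.83 to 5.30 CPM without inhibitors in palisade. HSFA7B had 0 counts in the 3 reference libraries with inhibitors and 7, 3 and 5 counts in the 3 without, so that it was at least 4.74-fold lower with a floor of 3 counts over the group. In palisade cells HSFA7B had 0, 1 and 0 counts with and 0, 0 and 3 counts without inhibitors and was not tested.

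The HSFA1 pair separated. HSFA1A was at 2.90, 2.06 and 2.53 CPM with inhibitors and 11.1, 9.87 and 10.4 CPM without in palisade cells, a log2 fold change of -2.13 ± 0.19 (adjusted p = 7.43e-06). HSFA1B was at 7.5, 10.3 and 12.2 CPM with inhibitors and 6.09, 7.0 and 9.88 CPM without in the same libraries, and these groups overlapped. Its log2 fold change was 0.34 ± 0.24 in palisade (adjusted p = 0.302) and 0.44 ± 0.15 in reference cells (adjusted p = 0.0295), where it passed the p limit and not the fold limit. With inhibitors HSFA1B thus had 5.82 ± 0.495 CPM per kb in reference cells, rank 3 among the members there, against 4.38 ± 0.667 CPM per kb and rank 8 without inhibitors. HSFA1B overlaps the antisense gene AT5G16830, HSFA3 overlaps AT5G03710, and HSFB2B overlaps AT4G05910 and AT4G11670. The paper calls the alignment strand-specific and gives no strand setting for the counting.

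**Figure D2:**
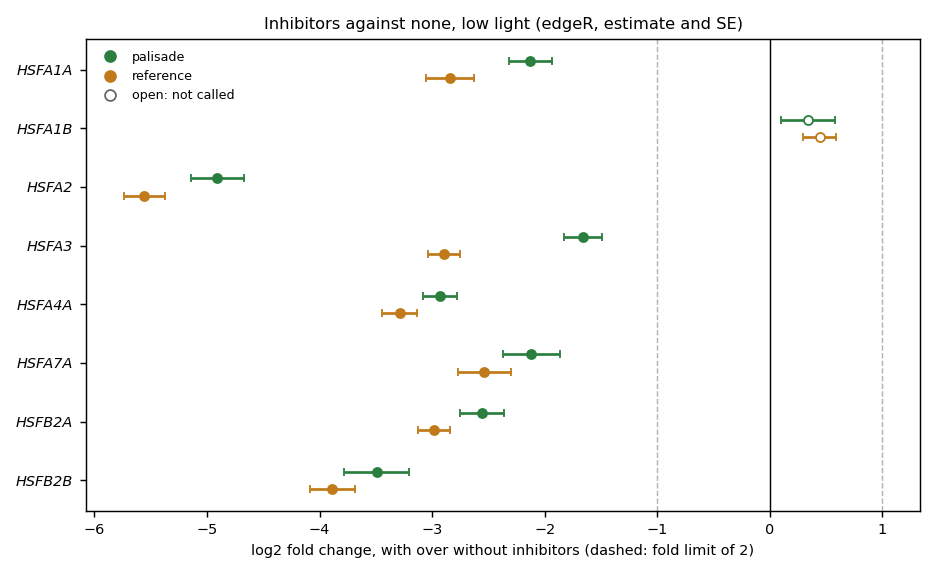
Log2 fold change with over without inhibitors in low light (x axis) of the 8 members measured in both populations, in palisade (green) and reference cells (orange), with bars of 1 SE and filled points for calls. All members but HSFA1B lie left of the dashed line at a fold of 2, with HSFA2 at -4.91 in palisade and -5.56 in reference cells.

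Genes of the wider network changed in the same direction. Of the 16 HSP70, HSP90 and HSP100 chaperones and co-chaperones, 14 were lower with inhibitors in both populations and 0 were higher, with median log2 fold changes of -4.52 in palisade and -5.32 in reference cells. HSP101, the disaggregase needed for heat tolerance, was at 6.05 to 13.5 CPM with inhibitors and 1402 to 3283 CPM without in palisade cells, and the co-chaperone BAG6 had a log2 fold change of -7.89 there. Of 14 small heat shock proteins, which hold unfolding proteins in solution, 13 were lower in each population and 0 higher, with medians of -4.64 in palisade and -5.16 in reference cells. In palisade cells HSP17.4 had a log2 fold change of -5.30 and HSP17.6II one of -5.29. Among 6 upstream and partner genes, 4 were lower in both populations. They were ROF2, a peptidyl-prolyl isomerase that binds HSP90, at -4.84 in palisade and -5.15 in reference cells, DREB2A, the activator of HSFA3, at -4.15 and -5.64, the coactivator MBF1C at -3.76 and -4.51, and ROF1 at -2.98 and -3.11. Of the HSFA2 targets APX2, GOLS1 and GOLS2, both galactinol synthases GOLS1 and GOLS2 were lower in each population, and APX2 was not called, at 1.09 and 0.11. Of the 11 other HSFs, 9 were tested and 6 in palisade and 5 in reference cells were lower, among them HSFA4C at -2.14 in palisade and HSFC1 at -2.71 in reference cells. Another member of the master class, HSFA1E, had -2.12 in reference cells. HSFA6B had 0, 0 and 0 counts with and 19, 7 and 6 counts without inhibitors in reference cells, and HSFB4 0, 0 and 0 counts with and 3, 4 and 2 counts without in palisade cells, and both were called there.

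These comparisons set different pools against each other, and the libraries with inhibitors were shallower. Of all calls, 4.35% in palisade and 5.28% in reference cells were higher with inhibitors, and these shares became 23.59% and 24.7% with upper-quartile scaling, which moved the median of all genes by 0.31 and 0.26 on the log2 scale. Both shifts were smaller than the change of any called member. Marker genes differed as well. The mesophyll sum was 43872 to 62145 CPM with and 26196 to 31239 CPM without inhibitors in palisade cells, and 36642 to 42015 CPM with and 20921 to 22969 CPM without in reference cells. IQD22 was at 44.7 to 52.5 CPM with and 86.9 to 134 CPM without inhibitors in palisade, and at 10.5 to 12.2 CPM with and 44.7 to 62.9 CPM without in reference cells. The abaxial sum was 6.73 to 16.7 CPM with and 10.9 to 18.9 CPM without in palisade, and 569 to 644 CPM with and 357 to 459 CPM without in reference cells. Their part in the result was not tested. Less new transcription during the digestion and loss of existing message cannot be told apart from these libraries.

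The inhibitor effect differed in size between the populations for 5 of the 9 members tested, against 4.75% of all genes (interaction term with pool as a block, adjusted p below 0.05 and no limit on the fold). In all 5 the fall was smaller in palisade than in reference cells, and 902 of the 973 genes called by this term had an estimate of the same sign. HSFA3, the class A factor that DREB2A activates, differed most of them. It was at 6.46, 5.46 and 4.94 CPM with inhibitors and 14.3, 17.2 and 19.5 CPM without in palisade cells, and at 6.14, 4.69 and 5.24 CPM with and 41.1, 43.4 and 37.5 CPM without in reference cells. The 2 populations overlapped with inhibitors and did not without. Its interaction estimate was 1.34 ± 0.18 on the log2 scale (palisade minus reference, adjusted p = 1.22e-05), beside effects of -1.66 in palisade and -2.89 in reference cells from separate fits. The estimates were 0.81 ± 0.24 for HSFA1A (adjusted p = 0.0497), 0.76 ± 0.15 for HSFA2 (adjusted p = 0.00103), 0.46 ± 0.12 for HSFA4A (adjusted p = 0.0271) and 0.54 ± 0.13 for HSFB2A (adjusted p = 0.0076). The call of HSFA1A was lost when any 1 pool was left out (adjusted p 0.0949 to 0.363), as was that of HSFA4A (0.0736 to 0.374), whereas HSFB2A lost its call without pool 3 of either treatment (adjusted p = 0.101 without that of inhibitors, 0.208 without that of no inhibitors). HSFA2 and HSFA3 kept theirs in each case, so that 2 to 3 members were called. Without the pool block 1 member, HSFA3, was called.

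High light was compared with low light in cells digested with inhibitors, so that both light levels share this treatment. The levels are those after the digestion, and loss of message during it cannot be told apart from differences before it. HSFA7A rose in both populations and HSFA2 rose in reference cells, so that 1 of 8 members was called in palisade and 2 of 8 in reference cells, and none was called lower. Across all genes 13.2% of those tested were called in palisade and 16.6% in reference cells. The median log2 fold change of the members was 0.28 in palisade and 0.53 in reference cells, against -0.0054 and -0.022 over all genes.

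Some marker genes also differed between the light levels. The 3 mesophyll markers summed to 27264 to 35659 CPM at high and 43872 to 62145 CPM at low light in palisade cells, and to 21947 to 28340 CPM at high and 36642 to 42015 CPM at low light in reference cells. The abaxial sum was 28.0 to 31.7 CPM at high and 6.73 to 16.7 CPM at low light in palisade, and 1262 to 1970 CPM at high and 569 to 644 CPM at low light in reference cells. The 4 root markers summed to 32.4 to 56.1 CPM at high and 17.2 to 25.9 CPM at low light in palisade, and to 31.0 to 46.9 CPM at high and 20.8 to 27.9 CPM at low light in reference cells. None of these ranges overlapped between the light levels, and several differed by as much as the called members. IQD22 overlapped in palisade cells (43.1 to 48.2 CPM at high and 44.7 to 52.5 CPM at low light) and not in reference cells (13.9 to 20.4 and 10.5 to 12.2 CPM). Phloem and bundle sheath markers and guard cell markers overlapped in both populations, and epidermis markers in reference cells alone. The part of all these markers in the light results was not tested.

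HSFA7A was at 3.18, 3.02 and 2.33 CPM in palisade cells at high light and 1.34, 0.866 and 1.41 CPM at low light. In reference cells it was at 3.42, 2.01 and 1.28 CPM at high and 0.931, 1.09 and 0.776 CPM at low light. The light groups did not overlap in either population, although the reference libraries at high light spread widely. The log2 fold changes were 1.12 ± 0.30 (adjusted p = 0.0111) in palisade and 1.04 ± 0.37 (adjusted p = 0.0393) in reference cells. HSFA2 was at 24.6, 19.8 and 22.2 CPM at high and 9.23, 10.6 and 8.68 CPM at low light in reference cells, 2.04-fold higher (log2 fold change 1.03 ± 0.13, adjusted p = 7.8e-05). In palisade cells HSFA2 was at 26.7, 18.5 and 21.2 CPM at high and 15.2, 11.7 and 10.3 CPM at low light, also without overlap, and its log2 fold change of 0.73 ± 0.16 (adjusted p = 0.00414) passed the p limit and not the fold limit. HSFA2 and HSFA7A are also members with a 3-unit heat shock element in the window searched. HSFA3, at 0.91 in palisade cells, and HSFA4A, at 0.78 in reference cells, passed the p limit and hold none. HSFA8, an HSF outside the members that rose in both populations, holds no 3-unit element either. HSFA4A and HSFA8 each hold 1 copy of the shorter form GAANNTTC, which occurred in 11.6% of all promoters. A link between the element and the light response was not tested. HSFA7B, the other member with the element, had 0, 0 and 0 counts in palisade and 3, 0 and 2 counts in reference cells at high light and was not tested.

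HSFA3 was higher at high light by 0.91 ± 0.16 in palisade (adjusted p = 0.000815) and 0.66 ± 0.16 in reference cells (adjusted p = 0.00597), under the fold limit in both, on values of 11.6, 10.8 and 11.9 CPM at high and 6.46, 5.46 and 4.94 CPM at low light in palisade. No library at high light overlapped one at low light. HSFA1A had log2 fold changes of 0.34 ± 0.23 in palisade and 0.11 ± 0.30 in reference cells, and HSFA1B of 0.23 ± 0.18 and -0.034 ± 0.13, none of which passed the p limit. HSFB2A had 0.13 ± 0.14 in palisade and 0.39 ± 0.13 in reference cells, where the adjusted p was 0.032 and the fold under the limit. For HSFB2B the values were -0.047 ± 0.25 and 0.20 ± 0.26, without a sign that held in both.

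HSFA4A was the member whose light response differed between the populations. It was at 42.7, 42.9 and 42.0 CPM at high and 38.9, 32.3 and 33.1 CPM at low light in palisade cells, and at 39.3, 39.7 and 39.8 CPM at high and 21.4, 17.398 and 21.6 CPM at low light in reference cells. The 2 light levels did not overlap in either population, and the gap was wider in reference cells. The log2 fold changes were 0.18 ± 0.11 in palisade (adjusted p = 0.241) and 0.78 ± 0.12 in reference cells (adjusted p = 0.000354). Their difference, palisade minus reference, was -0.63 ± 0.12 (adjusted p = 0.000914), and HSFA4A was the 1 member called of 8 by this term, against 5.54% of all genes. It was called in each fit that left out a pool, and without the pool block its adjusted p was 0.182.

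**Figure D3:**
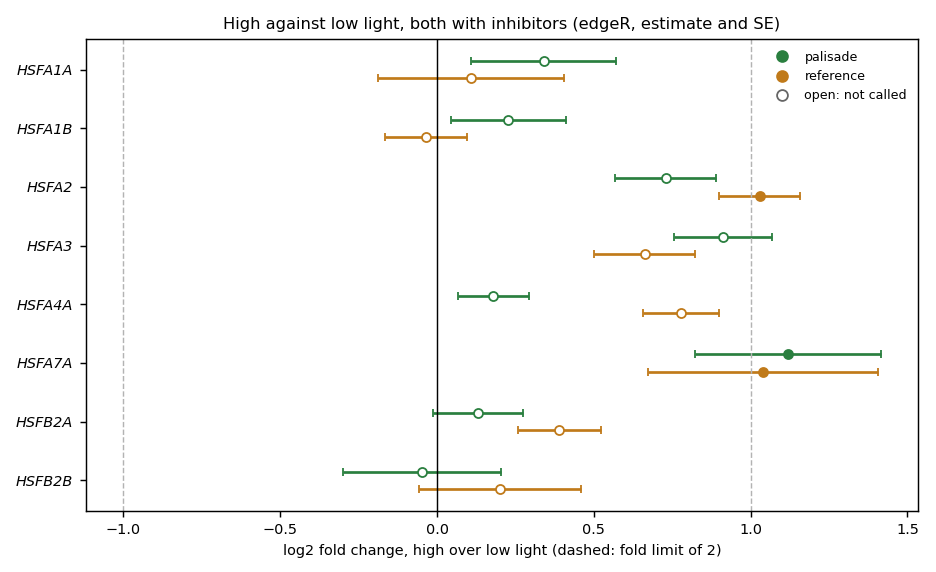
Log2 fold change of high over low light (x axis) for the 8 members tested, in palisade (green) and reference cells (orange), all with inhibitors, with bars of 1 SE and filled points for calls. HSFA7A lies past the fold limit in both populations and HSFA2 in reference cells, while HSFA4A lies at 0.18 in palisade and 0.78 in reference cells.

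Of the 16 HSP70, HSP90 and HSP100 genes, 6 rose in palisade and 9 in reference cells and none fell, with median log2 fold changes of 0.92 and 1.11. The largest of them were HSP90.1, at 1.84 in palisade and 2.79 in reference cells, HSC70-2, at 1.71 and 2.64, and HSP70-4, at 1.68 and 2.34. HSC70 genes resemble each other closely, and reads that aligned to more than 1 place were left out of the counts. Of 13 small heat shock proteins tested, 1 rose in palisade and 4 in reference cells, led by AT5G51440 at 2.06 and 2.53, with HSP17.6II at 1.10 among those of reference cells. Of the 6 upstream and partner genes ROF2 rose, by 1.07 in palisade and 1.82 in reference cells. Of the other HSFs, HSFA8 rose in both populations, to 10.9 to 12.4 CPM at high against 3.80 to 4.88 CPM at low light in palisade cells, with log2 fold changes of 1.29 in palisade and 1.17 in reference cells. Among the HSFA2 targets, APX2, a cytosolic ascorbate peroxidase, fell by 1.87 in palisade cells, and GOLS1 and GOLS2 rose in reference cells, by 2.00 and 1.52. The light response differed between populations in 6 of the 16 HSP70, HSP90 and HSP100 genes, each with the smaller value in palisade cells.

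The light calls of members lay close to the limits. HSFA7A lost its call in palisade cells without replicate 2 of low light (log2 fold change 0.93, adjusted p = 0.0510), and in reference cells both calls were lost with upper-quartile scaling (0.93 for HSFA2 and 0.95 for HSFA7A), without replicate 1 of high light (0.97 and 0.64) and without replicate 3 of low light (0.98 and 0.94). HSFA7A in reference cells was called in 1 of the 6 fits that left out a library, with log2 fold changes of 0.64 to 1.34. Of all calls 61.0% in palisade and 60.5% in reference cells were higher at high light, against 50.6% and 52.0% with that scaling.

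The comparison of palisade with reference cells of the same pools asks which members differ between the palisade and the other green cells. Without inhibitors HSFA3 was lower in palisade cells, the 1 member called of 9, where 8.75% of all genes were called. It was at 14.3, 17.2 and 19.5 CPM in palisade and 41.1, 43.4 and 37.5 CPM in reference cells, 2.47-fold lower in palisade and lower in all 3 pools (log2 fold change -1.30 ± 0.10, adjusted p = 6.05e-08). DREB2A, its activator in Arabidopsis, was at 975, 908 and 858 CPM in palisade and 1294, 1343 and 1253 CPM in reference cells, with a log2 fold change of -0.55 (adjusted p = 0.000192) under the fold limit. HSFA7B had 0, 0 and 3 counts in palisade and 7, 3 and 5 counts in reference cells, lower in palisade in all 3 pools, and its log2 fold change of -2.14 ± 0.96 did not pass the p limit (adjusted p = 0.0983). HSFA2 (-0.41 ± 0.089), HSFB2A (-0.40 ± 0.087) and HSFB2B (-0.27 ± 0.10) were lower and HSFA4A (0.30 ± 0.088) higher in palisade cells past the p limit and under the fold limit. Beside these values, the 4 phloem and bundle sheath markers summed to 7.43 to 8.70 CPM in palisade and 71.4 to 86.1 CPM in reference cells, and their part in the difference of HSFA3 was not tested.

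With inhibitors no member was called between the populations, of 8 tested at each light level, while 7.69% of all genes at low light and 8.42% at high light were. At an adjusted p below 0.05 with any fold there were 2 members at each light level. HSFA3 was at 6.46, 5.46 and 4.94 CPM in palisade and 6.14, 4.69 and 5.24 CPM in reference cells at low light, a log2 fold change of -0.07 ± 0.16 with overlapping libraries. HSFA4A was at 38.9, 32.3 and 33.1 CPM in palisade and 21.4, 17.398 and 21.6 CPM in reference cells at low light (0.65 ± 0.092, adjusted p = 1.59e-05), higher in all 3 pools, and had 0.042 ± 0.078 at high light. HSFA1B was the other at low light, at -0.36 ± 0.13, and HSFA1A and HSFB2A were those at high light, at 0.75 ± 0.24 and -0.24 ± 0.092. HSFA1A was at 3.79, 3.26 and 3.20 CPM in palisade and 1.71, 2.62 and 1.5 CPM in reference cells at high light, without overlap, and passed the fold limit when pool 2 was left out (log2 fold change 1.05, adjusted p = 0.00791).

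In JR11-2 none of the 8 members tested was called, against 2.16% of all genes, and 5 passed the p limit at any fold. HSFA3 was at 32.3, 33.5 and 37.1 CPM in the libraries labelled palisade and 33.1, 38.3 and 43.8 CPM in those labelled reference, which overlapped (-0.17 ± 0.069, adjusted p = 0.0909). HSFA2 had -0.25 ± 0.054, HSFB2A -0.20 ± 0.057, HSFB2B -0.26 ± 0.065 and HSFA7A -0.41 ± 0.14, all lower in the libraries labelled palisade, and HSFA4A had 0.20 ± 0.065, higher there. IQD22 was at 88.4 to 109 CPM in the libraries labelled palisade and 69.5 to 78.8 CPM in those labelled reference, a narrower gap than in the reporter line, and a difference between the lines was not tested.

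Root protoplasts were compared with leaf cells without inhibitors. There 7 of 9 members were called against palisade cells, 2 higher and 5 lower, and 8 of 9 against reference cells, 2 higher and 6 lower, in comparisons that called 65.3% and 64.1% of all genes. HSFA7A and HSFA7B were higher in root and HSFA2 and HSFA4A were far lower than in these leaf cells. In leaf cells with inhibitors at low light, HSFA2 was at 8.68 to 15.2 CPM, which overlapped root at 12.2 to 30.3 CPM. HSFA1A, HSFA3, HSFB2A and HSFB2B lay below root there, with HSFB2B at or under 7.21 CPM against at least 20.4 CPM. HSFA7A and HSFA7B also lay below root, and HSFA1B and HSFA4A lay above it. Root was not tested against leaf cells with inhibitors. Against leaf cells without inhibitors, the median log2 fold change of the members was -1.06 for palisade and -1.41 for reference cells, beside 0.38 and 0.32 over all genes.

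HSFA7A was at 29.5, 40.2 and 38.2 CPM in root, against 5.30, 5.04 and 4.83 CPM in palisade and 6.43, 5.28 and 4.83 CPM in reference cells. No library overlapped, and root was 6.99-fold higher than palisade and 6.33-fold higher than reference cells (log2 fold changes 2.81 ± 0.20 and 2.66 ± 0.19, adjusted p = 2.44e-08 and 5.77e-08). At 31.0 ± 4.90 CPM per kb it was the highest measured member in root and made up 32.1% of the summed level of the 9. HSFA7B had 113, 239 and 242 counts in root, 0, 0 and 3 counts in palisade and 7, 3 and 5 counts in reference cells. Scaled for depth, that is a ratio of 74.2 to palisade (95% counting interval 25.3 to 361) and of 16.0 to reference cells (9.63 to 28.8), where the intervals cover counting error only. All 3 palisade counts lay in replicate 3. The fitted log2 fold change of HSFA7B against palisade was 6.07 and lay between 5.52 and 6.28 when another library was left out, and it was 10.17 without palisade replicate 3, a value set against 0 counts that is no bound. Root was called higher in each of these fits. Even in root it stayed at 2.41 to 4.32 CPM.

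HSFA2 was at 12.2, 16.7 and 30.3 CPM in root, against 429, 272 and 362 CPM in palisade and 504, 374 and 484 CPM in reference cells, 18.13-fold and 23.56-fold lower. HSFA4A was at 12.6, 11.7 and 13.8 CPM in root, against 254, 283 and 229 CPM in palisade and 179, 235 and 191 CPM in reference cells, 20.3-fold and 16.3-fold lower. The root libraries lay below every leaf library without inhibitors for both genes. HSFB2A (-1.49 ± 0.21 against palisade and -1.86 ± 0.18 against reference cells), HSFB2B (-1.19 ± 0.23 and -1.41 ± 0.18) and HSFA3 (-1.06 ± 0.20 and -2.34 ± 0.17) were lower in root in both comparisons. With upper-quartile scaling HSFA3 and HSFB2B did not reach the fold limit against palisade, at -0.87 and -0.99. HSFA1A was called against reference cells alone (-1.03 ± 0.20, and -0.87 ± 0.20 against palisade), and did not reach the fold limit there with upper-quartile scaling (-0.89), and HSFA1B was called in neither (-0.52 ± 0.26 and -0.73 ± 0.22).

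**Figure D4:**
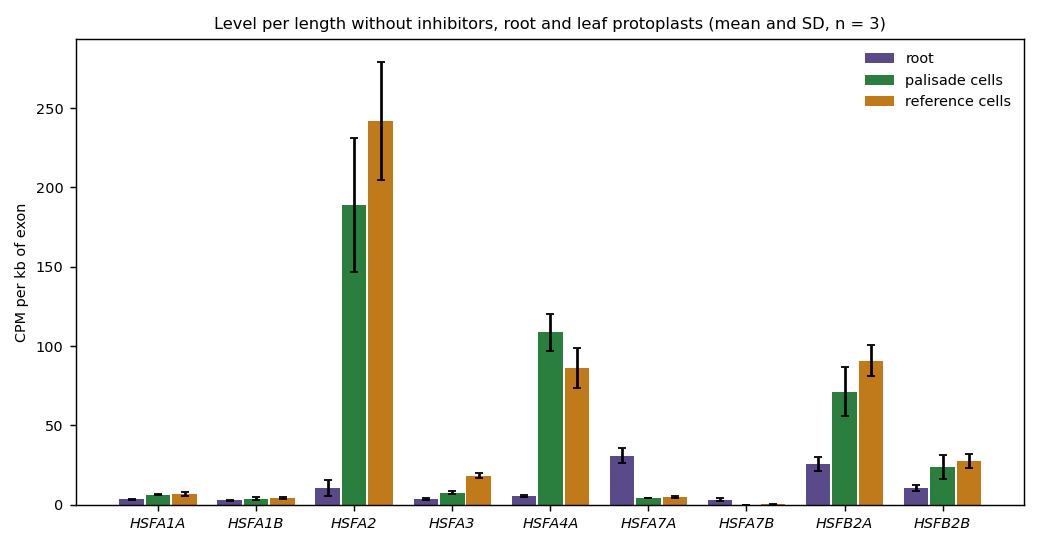
Level per length (CPM per kb of exon, y axis from 0) of the 9 members with any count in root (purple), palisade (green) and reference cells (orange) without inhibitors, as mean and SD of 3 libraries. HSFA2 reaches 189 CPM per kb in palisade and 242 CPM per kb in reference cells against 10.5 CPM per kb in root, and HSFA7A has its highest bar in root at 31.0 CPM per kb.

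The 10 members did not include the HSF with the highest count in root. HSFA6B was at 407, 510.2 and 180.3 CPM in root, against 0.687, 0.690 and 0.220 CPM in palisade and 0.814, 0.352 and 0.254 CPM in reference cells, a ratio of 688 (487 to 1006) to palisade and 742 (526 to 1085) to reference cells. HSFB4 was at 7.17 to 20.1 CPM in root and 0.0879 to 0.212 CPM in palisade cells, and HSFB3 had 2, 8 and 4 counts in root and 0 in both leaf groups. Of the 11 other HSFs, 3 were higher and 4 lower in root than in palisade cells among 10 tested, and 3 higher and 3 lower than in reference cells among 9. Of the 16 HSP70, HSP90 and HSP100 genes 13 were lower in root in both comparisons, and of the 14 small heat shock proteins 12 were lower against palisade and 11 against reference cells, with none higher in either list. These leaf cells were digested without inhibitors. The list medians against palisade cells were -4.24 and -3.63, beside -4.52 and -4.64 for inhibitors against none in palisade cells. Against reference cells they were -3.97 and -3.91, beside -5.32 and -5.16 for inhibitors there. A difference of these lists between root and leaf cells with inhibitors was not tested. Root and leaf libraries differ in organ, line and selection by a reporter together, and these cannot be told apart.

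HSFB1, a repressor that acts with HSFB2B in Arabidopsis, could not be measured. Its row and the preceding row of the annotation, AT4G36988, were listed at 0 in 27 of 27 libraries, whereas the next row, AT4G37000, held 28453 counts in total. The counting left out reads that fell on more than 1 gene, which were 0.296% to 0.684% of the reads in a library, and whether HSFB1 reads were among them was not tested. No level of HSFB1 can be read from these files.

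Across all 27 libraries the 5 genes most like HSFA2 by Pearson's r of log2 CPM, of 17040 compared, were AT5G13200 (0.996), AT3G05500 (0.993), UCP5 (0.993), CML37 (0.993) and AT5G48530 (0.993). These are descriptions, since the libraries share the split by inhibitors and organ. Among the members themselves HSFB2A had r = 0.972 with HSFA2 and 0.973 with HSFB2B, and HSFA1B ran against HSFA7A with r = -0.73 and against HSFA1A with r = -0.66.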

How the data were processed

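The authors aligned strand-specific, single-end 50-base reads to TAIR10 with TopHat2 2.0.9 after CASAVA 1.8.2, and the raw counts they deposited, from HTSeq 0.6.1, cover 33602 genes in each of 27 libraries. Reads on no gene (0.656% to 2.71%), on more than 1 gene (0.296% to 0.684%) or aligned to more than 1 place (4.33% to 9.75%) are tallied separately and were left out of library sizes, as were 279 organelle genes. Genes were tested where 3 or more libraries of the comparison had 2 or more counts, with edgeR 4.0.16 in R 4.3.3 (TMM scaling, quasi-likelihood F-test, Benjamini-Hochberg adjustment). A call needed an adjusted p below 0.05 and a fold-difference above 2, or the adjusted p alone for interaction terms. Each comparison used its own 6 libraries, or 12 for interactions. Palisade and reference libraries of 1 pool were blocked, since the labels tie them to the same protoplasts (their deviations correlated at 0.34 to 0.81). The SE is the log2 fold change divided by the square root of F and is approximate. CPM values use 1 TMM scale over all 27 libraries, so that their ratios differ from the fitted folds, which decide the calls. With light, HSFA2 in reference cells had means of 22.2 and 9.50 CPM beside a fitted fold of 2.04. HSFA3 in palisade cells had means of 11.4 and 5.62 CPM beside a fitted fold of 1.88, under the limit. Values per length used RefSeq TAIR10.1 exons, matched by gene identifier, and positions and promoters came from the same assembly. Figures and tables used Python 3.11.15, pandas 2.3.3 and matplotlib 3.10.9, and counting intervals scipy 1.17.1.

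The procedure was tested on simulated data with known changes. Alternatives were DESeq2 1.42.0, upper-quartile scaling, no filter or a mean of at least 10 counts, all 27 libraries in 1 fit, the block added or removed, any fold, and each library or pool left out. All 10 members were named, the other HSFs by the 3 largest calls and each pathway list by up to 4 of the largest calls. APX2 and DREB2A, where they were not called, were named after their values were seen. The members and lists were chosen with earlier results of these data known. The labels do not say whether root libraries came from separate plants, so that p-values there measure only the spread between these libraries.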

Additional observations from a re-analysis of the deposited data

Results flagged for a closer look

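A total of 6 values stood out because the effect of a treatment differed between palisade and reference cells by the interaction term (edgeR with Benjamini-Hochberg adjustment, palisade minus reference, log2 scale). For high light this was HSFA4A at -0.63 (adjusted p = 0.000914), with a smaller response in palisade cells. For inhibitors these were HSFA3 at 1.34, HSFA1A at 0.81, HSFA2 at 0.76, HSFB2A at 0.54 and HSFA4A at 0.46, each with the smaller fall in palisade cells. The values of the 12 libraries behind each are given above for HSFA3 and HSFA4A. Among all genes called by the inhibitor term, 902 of 973 had the same sign.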

How the results depend on the processing

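The counts of called members with inhibitors (7 in palisade, 8 in reference cells) and in root (7 and 8) stayed within 1.5 times under every alternative. For palisade against reference cells, an adjusted p below 0.05 at any fold gave 5 members without inhibitors in place of 1, 2 with inhibitors at each light level in place of 0, and 5 in JR11-2 in place of 0. Leaving out a pool gave 0 to 1 at high light. For high against low light, palisade cells had 2 with all 27 libraries in 1 fit, 3 at any fold and 0 to 1 with 1 library left out, and reference cells had 0 with upper-quartile scaling, 5 at any fold and 0 to 2 with 1 library left out. The 5 members whose inhibitor effect differed between populations became 3 with DESeq2, 3 without a filter on low counts and 2 to 3 with 1 pool left out. With no replicate block the light term called 0 members in place of 1 and the inhibitor term 1 in place of 5. In comparisons of different pools the replicate numbers do not pair the libraries (same-number correlations of -0.21 to 0.39), and adding them as a replicate block left the member counts at 7 and 8 for inhibitors, 1 and 2 for light and 7 and 8 for root. Over all genes, any fold in place of a fold above 2 raised the calls to 6936, 5740 and 7093 for palisade against reference cells (main 1742, 1458 and 1605), 3972 in JR11-2 (432), 6961 and 9992 for inhibitors (3815 and 4352) and 6616 and 8197 for light (2459 and 3221). JR11-2 had 73 calls without the block and 166 with all 27 libraries. The light term had 587 calls with DESeq2, 9 without the block and as few as 611 with a pool left out in place of 1112, and the inhibitor term 46 without the block and as few as 582 with a pool left out in place of 973.

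Of the single-member values 1024 kept sign and side of the limits, 42 fell short of them, 2 passed them and 20 changed sign. All 20 were of uncalled values, some with a wide SE, such as HSFA7A between the layers with inhibitors at low light (0.24 ± 0.35). With all 27 libraries these were HSFA3 between the layers with inhibitors at low light (0.061), HSFB2B with light in palisade (0.062) and HSFA1B with light in reference cells (0.16), and with a mean of at least 10 counts HSFA1B in the inhibitor term (0.017). With 1 library or pool left out, the ranges that crossed 0 were, between palisade and reference cells with inhibitors, HSFA3 (-0.15 to 0.0044), HSFA7A (-0.021 to 0.54) and HSFB2A (-0.0039 to 0.064) at low light and HSFB2B (-0.22 to 0.045) at high light. With light they were HSFB2B in palisade (-0.26 to 0.25) and, in reference cells, HSFA1A (-0.18 to 0.28), HSFA1B (-0.076 to 0.051) and HSFB2B (-0.099 to 0.40), and in the light term HSFA7A (-0.22 to 0.39) and in the inhibitor term HSFA1B (-0.21 to 0.11). The cause of these changes was not tested. Depth limits HSFA7B in leaf, at 0 to 7 counts a library, and HSFA7A with inhibitors.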
